A study of Mus musculus with 32 samples.

Results

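The genes described here are 8 interferon-stimulated effectors of antiviral defence in mouse macrophages: the IFIT genes Ifit1, Ifit2 and Ifit3, the viperin gene Rsad2 and its neighbour Cmpk2, the Mx genes Mx1 and Mx2, and the exonuclease gene Isg20. They were chosen by name, as every probe that the scanner files assign to one of these symbols. The name match gave 10 of the 55681 probes on the array and 8 of the 16037 genes that were tested. All 8 genes passed the filter on dim probes. Cmpk2 and Isg20 have 2 probes each, and the brighter one stands for the gene.

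The samples were bone marrow-derived macrophages (BMDMs), cells grown from mouse marrow in the growth factor M-CSF. They came from wild-type (WT) C57BL/6 mice (C57BL6/J in the methods) and from Ifnar1-/- mice. The knockout affects all cells of the mouse and takes away Ifnar1, which the type I interferon receptor needs. Cells of each genotype were left untreated or were exposed for 6 h to zVAD alone, to LPS or IFNβ alone, to either of these with zVAD, or to either with zVAD and Nec-1. Each of the 16 combinations of genotype and treatment was measured on 2 arrays, 32 arrays in all. LPS is a bacterial cell-wall component sensed by the receptor TLR4, zVAD blocks caspases, and Nec-1 blocks the kinase RipK1. The doses in the labels are 100 ng/mL of LPS and 1000 U/mL of IFNβ, while the study's text gives other doses. The age and sex of the mice are not given in the sources used here. The labels do not say whether the 2 arrays of a group came from separate animals or cultures, so the p-values measure the spread between these samples, which may be technical.

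Type I interferons bind the receptor IFNAR1-IFNAR2 and, through the kinases JAK1 and TYK2, activate the transcription factor complex ISGF3. ISGF3 binds a short element, the interferon-stimulated response element, upstream of its target genes. LPS reaches the same genes indirectly, because TLR4 signaling through TRIF activates IRF3, IRF3 switches on Ifnb1, and the secreted IFNβ acts back on the cell. Some of these targets can also be switched on by IRF3 or IRF1 without secreted interferon. The IFIT proteins bind viral RNA and hold back its translation. Viperin, encoded by Rsad2, converts CTP into a chain terminator of viral polymerases, and Cmpk2 encodes a mitochondrial nucleotide kinase that supplies the CTP. Mx proteins are dynamin-like GTPases that trap viral components, and Isg20 encodes a 3′ to 5′ exonuclease of RNA.

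The upstream sequences of Ifit1, Ifit3 and Rsad2 are shown because they carry the letters of the response element. RefSeq windows of 250 bases before an annotated start (assembly GRCm38.p6) were found for 6 of the 8 genes, in 9 windows. Each window was searched on both strands for GAAA, any 2 letters and GAAA again, the core of the response element, which reads TTTC, 2 letters and TTTC on the other strand. Matches were found in 3 of the 6 genes, whereas 3.46% of the 27025 genes with a window held a match. The sequences below are printed 5′ to 3′ on the gene's strand, with each match in capitals. They lie at chr19:34640639-34640888 (plus strand) for Ifit1, chr19:34583279-34583528 (plus strand) for Ifit3 and chr12:26456453-26456702 (minus strand) for Rsad2.
Ifit1: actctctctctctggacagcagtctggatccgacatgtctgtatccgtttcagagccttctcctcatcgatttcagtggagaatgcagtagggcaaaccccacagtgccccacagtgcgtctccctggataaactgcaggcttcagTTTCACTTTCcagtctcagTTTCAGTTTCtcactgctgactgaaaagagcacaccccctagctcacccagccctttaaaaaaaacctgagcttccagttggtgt
Ifit3: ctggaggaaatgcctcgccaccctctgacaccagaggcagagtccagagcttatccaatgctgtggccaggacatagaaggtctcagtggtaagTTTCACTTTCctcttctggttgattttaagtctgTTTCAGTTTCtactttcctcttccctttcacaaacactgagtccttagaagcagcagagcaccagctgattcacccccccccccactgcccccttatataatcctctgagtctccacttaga
Rsad2: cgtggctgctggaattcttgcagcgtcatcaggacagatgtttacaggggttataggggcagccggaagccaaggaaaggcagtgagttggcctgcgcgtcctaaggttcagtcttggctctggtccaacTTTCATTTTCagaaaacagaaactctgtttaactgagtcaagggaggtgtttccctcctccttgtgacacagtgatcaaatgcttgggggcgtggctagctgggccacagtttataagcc
Ifit1 and Ifit3 each held the same pair of letters, TTTCACTTTC and then TTTCAGTTTC, and Rsad2 held the single run TTTCATTTTC. In Ifit1 the pair began at positions -104 and -85 before the start, in Ifit3 at -156 and -122, and in Rsad2 the run began at -120. The windows of Ifit2, Cmpk2 and Isg20 held none of these letters, which says only that this 10-letter run is not in these 250 bases.

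**Figure D1:**
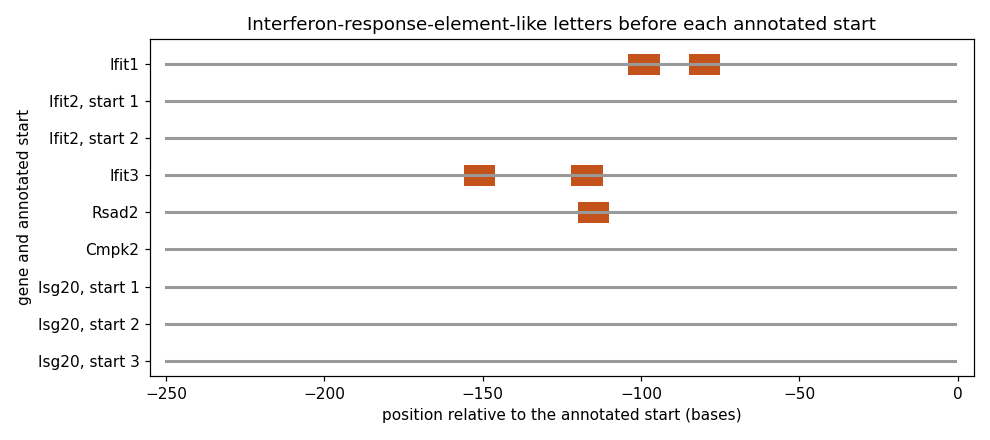
Each grey line is a window of 250 bases before an annotated start, with the position relative to the start in bases on the horizontal axis and the gene and start on the vertical axis. Orange blocks are matches to the 10-letter core of the response element, which number 2 in Ifit1, 2 in Ifit3 and 1 in Rsad2.

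By the same annotation Ifit1, Ifit2 and Ifit3 lie within 99460 bases of chromosome 19. Rsad2 and Cmpk2 lie 12664 bases apart on chromosome 12, on opposite strands, and Mx1 and Mx2 lie 73174 bases apart on chromosome 16. RefSeq lists Mx1 and Mx2 as transcribed pseudogenes in this C57BL/6J assembly and the other 6 genes as protein coding. The array probes are annotated on the older mm9 assembly, where the Ifit1 probe lies at chr19:34723796-34723855, the Rsad2 probe at chr12:27127859-27127918 and the Mx1 probe at chr16:97668644-97668703. The exon or UTR that holds each probe was not analysed here.

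Levels are log2 intensities after quantile normalization, and each probe is compared only with itself. Between 54.9% and 78.1% of the probes were well above background on WT arrays and between 44.5% and 61.6% on Ifnar1-/- arrays, and no array held a saturated spot. Each of the 4 slides holds the 8 treatments of 1 genotype and 1 replicate number, so genotype and slide cannot be told apart within a treatment. Changes within a genotype, and differences between the changes of the genotypes, are free of this. All 8 macrophage markers (Csf1r, Emr1, Cd68, Itgam, Lyz2, Mertk, Fcgr1 and Cd14) were above background on 32 of 32 arrays. Markers of other cells were mixed. The T cell markers Cd3g and Cd3d were above background on 3 and 4 arrays, but Cd3e and Lck on 32, and the fibroblast marker Pdgfra was on 0, but Col1a1, Col1a2 and Dcn on 32. The neutrophil markers Elane, Mpo, Camp, S100a8 and S100a9 were above background on 32 arrays and Ly6g on 17. The NK cell marker Ncr1 was above background on 2 arrays, but Klrb1c on 17 and Eomes on 11. The summed level of 6 neutrophil markers was 13.4 to 15.5 on the WT arrays and 15.5 to 16.7 on the Ifnar1-/- arrays. Such a sum follows its brightest genes, here S100a9 and S100a8. Ly6g went the other way, with a median of 10.16 on WT and 3.85 on Ifnar1-/- arrays, and Elane was nearly level (12.59 and 12.70). The sum of 4 fibroblast markers was 8.64 to 10.3 and 10.8 to 12.6, and that of the 8 macrophage markers 19.6 to 20.1 in each genotype. The part of other cells in the genotype differences was not tested. The ranges for the 2 genotypes were 10.4 to 14.2 and 10.4 to 11.3 for 4 T cell markers, 8.66 to 10.3 and 9.37 to 10.5 for 4 B cell markers, 4.95 to 6.40 and 5.76 to 7.10 for 3 NK cell markers, and 15.7 to 16.4 and 15.2 to 16 for 3 dendritic cell markers. The 3 Ifnar1 probes read 14.22 and 14.19, 8.53 and 8.31, and 9.98 and 9.94 in untreated WT cells, against 11.89 and 11.87, 6.48 and 7.06, and 7.93 and 8.02 in untreated Ifnar1-/- cells. The Ifnar1 signal was thus lower in untreated knockout cells but not lost. The brightest probe did not differ this way under every treatment: its group means were 11.78 in WT and 11.66 in Ifnar1-/- cells with LPS+zVAD, and 10.88 and 11.27 with IFNβ+zVAD+Nec-1. Whether these probes lie in the deleted part was not analysed here.

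Some libraries stood apart from their labelled partner. The 2 Ifnar1-/- LPS+zVAD+Nec-1 arrays correlated at r = 0.952 over genes, the lowest of the 16 pairs, and replicate 2 lay closest to Ifnar1-/- IFNβ+zVAD+Nec-1 replicate 2 (r = 0.991). The best match of an array was its own replicate for 3 of 16 WT and 4 of 16 Ifnar1-/- arrays. Removing the Ifnar1-/- LPS+zVAD+Nec-1 pair from the fit left the number of the 8 genes called changed as it was in each Ifnar1-/- comparison without that group: 5 for LPS, 0 for IFNβ, 7 for LPS+zVAD, 5 for the addition of zVAD to LPS and 4 for IFNβ+zVAD+Nec-1.

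All 8 genes were on in untreated WT macrophages and far lower in untreated Ifnar1-/- macrophages. Ifit3 was at 14.22 and 14.29 in WT cells and at 5.54 and 5.94 in Ifnar1-/- cells. Ifit2 was at 11.63 and 11.74 against 5.82 and 6.02, and Rsad2 at 11.87 and 11.95 against 6.08 and 5.83. For these genes the levels in the 2 genotypes did not come near each other. Ifit1 was at 11.74 and 11.38 in WT cells and not well above background in Ifnar1-/- cells, and Mx1 was at 11.27 and 11.86 in WT cells and likewise not well above background without the receptor. The WT level was at least 167-fold higher for each of the pair, which is a bound because the lower level was not measured. Isg20 was the least affected, at 11.98 and 12.40 against 9.12 and 9.09. In the fit, 8 of 8 genes were lower in untreated Ifnar1-/- cells where 3.35% of all genes were called lower, with log2 differences from -8.51 for Ifit3 to -3.09 for Isg20 among the 6 genes measured in both genotypes, and adjusted p over the 8 no higher than 5.76e-05. All 8 genes were also called lower in Ifnar1-/- than in WT cells under each treatment, where 3.15% (zVAD) to 16% (IFNβ) of all genes were; the shares were 10.1% with LPS, 11.7% with LPS+zVAD, 15.9% with IFNβ+zVAD, 14.6% with LPS+zVAD+Nec-1 and 16% with IFNβ+zVAD+Nec-1. With only the arrays compared in the fit, the zVAD comparison gave 3 of 8. The smallest of these differences was that of Rsad2 with LPS+zVAD, at -2.74 log2. In bulk RNA, fewer cells that express a gene and less of its RNA per cell cannot be told apart, and here slide and genotype cannot be told apart either.

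In WT macrophages LPS and IFNβ each raised all 8 genes by several log2 units. Of all genes, 16.3% were called higher with LPS and 13.7% with IFNβ. The median change of the 8 genes was 4.52 log2 with LPS, against -0.08 over all genes, and 5.54 log2 with IFNβ, against -0.17 over all genes. Every treated array lay above every untreated array for each gene.

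Among the IFIT genes, Ifit1 went from 11.74 and 11.38 in untreated cells to 16.37 and 15.34 with LPS and 16.73 and 16.43 with IFNβ. Ifit2 read 16.33 and 15.32 with LPS and 17.31 and 17.26 with IFNβ, and Ifit3 read 17.33 and 16.86 with LPS and 17.85 and 17.80 with IFNβ. The LPS arrays thus lay high but below the IFNβ arrays, with replicate 2 the lower of the pair. The rises with LPS were 4.30 log2 for Ifit1 (SE 1.21, adjusted p = 0.00787), 4.14 for Ifit2 (SE 0.43, adjusted p = 9.49e-07) and 2.85 for Ifit3 (SE 0.44, adjusted p = 4.59e-05). Ifit3 had the smallest rise of the 8 genes with LPS and with IFNβ (3.57 log2). Without WT LPS replicate 1, the Ifit1 rise with LPS was 3.78 log2 and its adjusted p 0.0695.

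Rsad2 went from 11.87 and 11.95 to 17.64 and 16.87 with LPS and to 18.08 and 17.92 with IFNβ. Cmpk2, from 11.52 and 11.38, read 16.98 and 15.72 with LPS and 17.73 and 17.54 with IFNβ. This neighbouring pair had the largest rises of the 8 genes with IFNβ, 6.09 log2 (SE 0.74) for Rsad2 and 6.18 log2 (SE 0.39) for Cmpk2. With LPS the rises were 5.35 and 4.90 log2, and the second Cmpk2 probe gave the same calls.

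Of the Mx genes, Mx1 went from 11.27 and 11.86 to 16.97 and 16.23 with LPS and 17.35 and 17.23 with IFNβ, and Mx2 from 10.09 and 10.49 to 14.90 and 14.25 with LPS and 15.67 and 15.87 with IFNβ. Isg20 went from 11.98 and 12.40 to 16.79 and 17.08 with LPS and 17.52 and 17.78 with IFNβ. The log2 rises with LPS were 5.04 for Mx1 (SE 0.92), 4.29 for Mx2 (SE 0.48) and 4.74 for Isg20 (SE 0.36), and with IFNβ 5.73, 5.49 and 5.46.

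**Figure D2:**
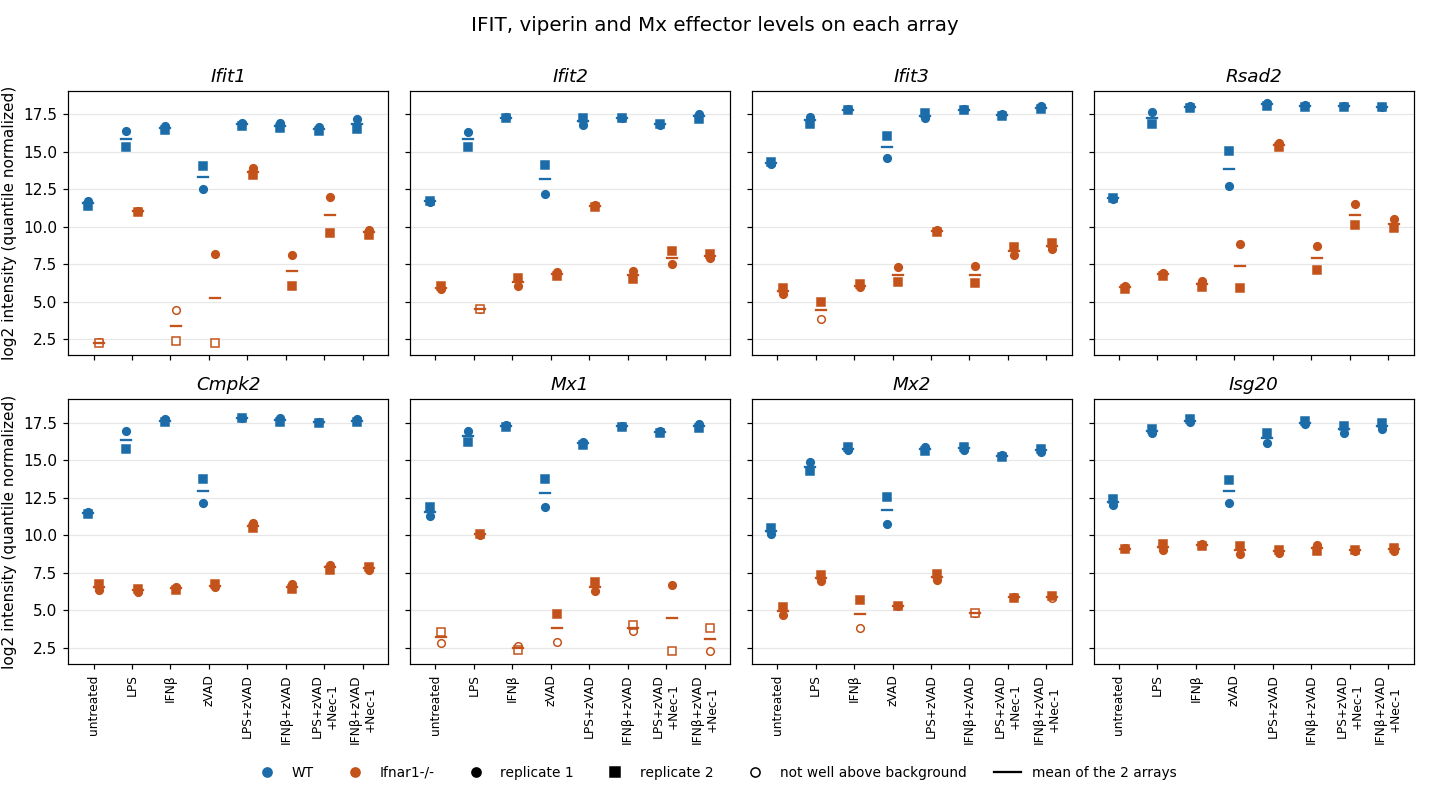
Each panel is a gene, with the 8 treatments on the horizontal axis and the quantile-normalized log2 intensity on the vertical axis. Blue marks are WT arrays and orange marks Ifnar1-/- arrays, circles are replicate 1 and squares replicate 2, open marks were not well above background, and a short line is the mean of the 2 arrays. WT arrays lie above Ifnar1-/- arrays of the same treatment in every panel, and among the Ifnar1-/- groups Ifit1 and Mx1 stand out with LPS (11.05 and 11.00, 10.01 and 10.11) and Rsad2 with LPS+zVAD (15.56 and 15.31).

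LPS gave lower levels than IFNβ for all 8 genes in WT cells, and the difference passed the test for 2 of them. Ifit2 was 1.46 log2 units lower with LPS (95% interval -2.36 to -0.55, adjusted p = 0.0209) and Cmpk2 was 1.29 units lower (interval -2.09 to -0.48, adjusted p = 0.0225), where 11.1% of all genes were called lower. With the slide as a block 4 genes passed, the others being Mx2 (adjusted p = 0.0478) and Isg20 (0.0398). For Ifit1 the interval of the difference ran from -3.27 to 1.82, so this fit cannot tell equality from a several-fold difference. Its width comes from a spread shared over all 16 groups. The Ifit1 SD was 0.73 with LPS and 0.22 with IFNβ in WT cells, but 4.23 in Ifnar1-/- cells with zVAD. On the 2 WT slides Ifit1 was lower with LPS, by -0.36 and -1.09 log2. Without WT LPS replicate 2, or without either WT IFNβ array, 0 of the 8 passed.

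zVAD alone gave higher mean levels of all 8 genes in WT cells, by 0.72 to 1.96 log2, and none passed the test, where 0.00624% of all genes were called. Of the 8, 5 had an unadjusted p under 0.05. The 2 arrays differed: Rsad2 was at 12.71 and 15.03, Ifit2 at 12.21 and 14.13 and Mx1 at 11.89 and 13.75, with replicate 2 above replicate 1 for each of the 8 genes. With WT zVAD replicate 1 left out, 2 of the 8 genes passed.

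Against untreated WT cells, 8 of 8 genes were called higher with LPS+zVAD (18.3% of all genes), with IFNβ+zVAD (14.4%), with LPS+zVAD+Nec-1 (16%) and with IFNβ+zVAD+Nec-1 (13.3%). When zVAD was added to LPS, Cmpk2 rose by a further 1.49 log2 (SE 0.39, adjusted p = 0.00533), from 16.98 and 15.72 to 17.82 and 17.85. Ifit2 rose by 1.21 log2 (SE 0.43, adjusted p = 0.0365), where 12.9% of all genes were called higher. With the slide as a block Mx2 passed too (1.16 log2, adjusted p = 0.0413), and without WT LPS replicate 2 none of the 8 passed. Adding zVAD to IFNβ (0% of all genes called), Nec-1 to LPS+zVAD (28.5%) or Nec-1 to IFNβ+zVAD (0%) gave 0 calls among the 8 genes, and none had an unadjusted p under 0.05. When Nec-1 was added to LPS+zVAD, Mx1 (0.73 and 0.83 log2) and Isg20 (0.67 and 0.51) were higher on both slides. Mx2 was lower on both (-0.55 and -0.38), as were Ifit1, Cmpk2 and Rsad2 by less, and Ifit2 and Ifit3 differed in sign between the slides. The means with IFNβ+zVAD were within 0.15 log2 of those with IFNβ.

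IFNβ did not measurably move the 8 genes in Ifnar1-/- macrophages. Limma called 0 of 8 genes and 0% of all genes, and at an unadjusted p under 0.05 there were 0 of the 8 and 253 of all genes. Ifit2 was at 6.04 and 6.55 with IFNβ against 5.82 and 6.02 untreated, Cmpk2 at 6.57 and 6.33 against 6.33 and 6.75, and Isg20 at 9.43 and 9.25 against 9.12 and 9.09. The 95% interval of the log2 change was -0.53 to 1.28 for Ifit2, -0.90 to 0.71 for Cmpk2 and -0.51 to 0.99 for Isg20, which leaves out rises of the size seen in WT cells. For Ifit1 (-1.41 to 3.68) and Mx1 (-2.65 to 1.21) the intervals were wider, and neither gene was well above background on any of the 4 arrays. The change with IFNβ was lower in Ifnar1-/- than in WT cells for 7 of 8 genes, where 8.54% of all genes were called lower, by 3.25 log2 (Ifit3) to 6.28 log2 (Cmpk2). These sizes leave out Mx1, which passed but was not well above background on any of the 4 Ifnar1-/- arrays. Ifit1, at -3.88 log2, did not pass (adjusted p = 0.127), but did with the slide as a block (0.0405).

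LPS split the 8 genes in Ifnar1-/- macrophages. It raised Ifit1, Mx1 and Mx2, while Rsad2, Cmpk2 and Isg20 did not pass the test and Ifit2 and Ifit3 were called lower. This made 3 of 8 genes called higher, where 10.9% of all genes were, and 2 of 8 called lower, where 13.9% were.

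Ifit1 was not well above background in untreated Ifnar1-/- cells and read 11.05 and 11.00 with LPS, close to its level in untreated WT cells. This was a rise of at least 115-fold (adjusted p = 9.4e-05). Its neighbours went the other way: Ifit2 read 5.82 and 6.02 untreated and was not well above background with LPS, and Ifit3 read 5.54 and 5.94 untreated, was not well above background on 1 LPS array and read 5.00 on the other. Ifit2 was at least 2.57-fold lower (adjusted p = 0.0224) and Ifit3 fell by 1.31 log2 (adjusted p = 0.0339). Both falls concern dim spots and did not pass with normexp background correction (-0.43 log2 for Ifit2 and -0.45 for Ifit3) or in the authors' normalized values (-0.73 and -0.84), and Ifit2 did not pass without any 1 of the 4 arrays (adjusted p 0.0715 to 0.121). The Ifit1 change itself was smaller with normexp, at 5.02 log2, and passed.

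Rsad2 read 6.93 and 6.73 with LPS and 6.08 and 5.83 without, a log2 change of 0.88 with an interval from -0.68 to 2.43 (adjusted p = 0.465). Cmpk2 read 6.22 and 6.42 with LPS and 6.33 and 6.75 without, a change of -0.22 with an interval from -1.03 to 0.59. These dim levels were above background on each of the arrays, and the LPS arrays of Cmpk2 overlapped the untreated ones while those of Rsad2 lay just above. In a fit of only these 4 arrays Rsad2 passed (adjusted p = 0.023).

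Mx1 was not well above background in untreated Ifnar1-/- cells and read 10.01 and 10.11 with LPS, at least 59.1-fold higher (adjusted p = 7.33e-05). Mx2 went from 4.69 and 5.23 to 6.93 and 7.33, a rise of 2.17 log2 (SE 0.48, adjusted p = 0.0026). Both Mx genes thus responded to LPS without the receptor, Mx1 by more. Isg20 read 8.99 and 9.40 with LPS and 9.12 and 9.09 without, and its change of 0.09 log2 had an interval from -0.66 to 0.84. Compared with IFNβ in Ifnar1-/- cells in place of no treatment, the same 3 genes were higher with LPS (10.9% of all genes) and the same 2 lower (13.9%), with Ifit1 at least 55.8-fold and Mx1 at least 28.6-fold higher.

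The change with LPS was compared directly between the genotypes. It was lower in Ifnar1-/- cells for 5 of 8 genes, where 3.6% of all genes were called lower: the log2 difference was -5.54 for Ifit2, -5.12 for Cmpk2, -4.65 for Isg20, -4.47 for Rsad2 and -4.16 for Ifit3. Adjusted p for these ran from 2.51e-05 to 0.0132, and that of Rsad2 was 0.0525 to 0.0757 when Ifnar1-/- LPS replicate 2, Ifnar1-/- untreated replicate 1 or WT LPS replicate 1 was left out. The Ifit2 size was not measured, because neither Ifnar1-/- LPS array was well above background for it, and for Ifit3 only 1 was. Mx2 was 2.12 log2 lower (adjusted p = 0.0677, and 0.0291 with the slide as a block). For Ifit1 the change was 4.46 log2 larger in Ifnar1-/- cells (interval 0.87 to 8.06, adjusted p = 0.139, and 0.0368 with the slide as a block). It rose from below background there, so the size of this difference depends on how dim spots are treated, and it was 0.71 log2 with normexp. For Mx1 the interval ran from -0.88 to 4.58 and the sign turned with normexp, to -1.05.

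**Figure D3:**
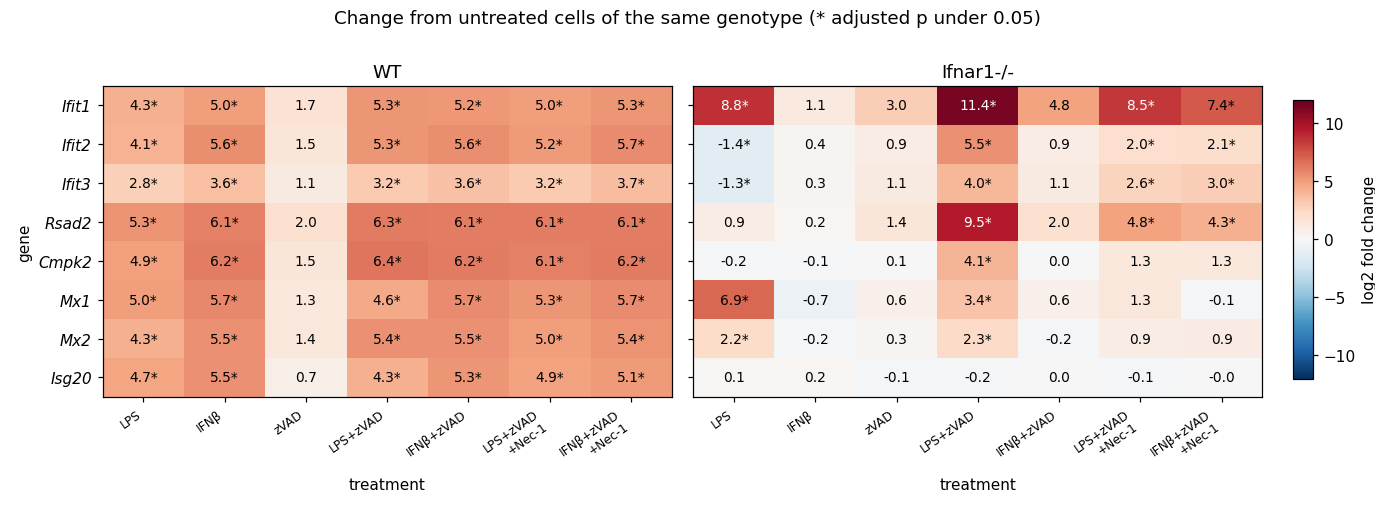
Each cell is the log2 fold change of a gene from untreated cells of the same genotype, by treatment on the horizontal axis, for WT (left) and Ifnar1-/- macrophages (right); red is higher, blue is lower, and an asterisk marks an adjusted p under 0.05. Asterisks fill every column of the WT panel but zVAD, whereas in the Ifnar1-/- panel LPS marks rises of Ifit1 (8.76), Mx1 (6.89) and Mx2 (2.17), the first pair from levels not well above background, and LPS+zVAD marks 7 of the 8 genes.

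With zVAD and LPS together, 7 of 8 genes were called higher than in untreated Ifnar1-/- cells, where 11% of all genes were. Rsad2 read 15.56 and 15.31, from 6.08 and 5.83 untreated, a rise of 9.48 log2 (SE 0.74, adjusted p = 5.55e-07). Ifit1 read 13.91 and 13.44, at least 722-fold higher than untreated. Ifit2 read 11.47 and 11.32, close to untreated WT cells, and rose by 5.48 log2 (SE 0.43). Ifit3 read 9.79 and 9.66 and rose by 3.98 log2, and Cmpk2 read 10.79 and 10.47 and rose by 4.09 log2. Mx1 read 6.28 and 6.85, at least 5.25-fold higher (adjusted p = 0.00971), and Mx2 read 6.99 and 7.43, a rise of 2.25 log2. Isg20 alone did not pass, at 8.81 and 9.01 (-0.19 log2, interval -0.94 to 0.56). The Mx1 rise had an adjusted p of 0.0671 without Ifnar1-/- LPS+zVAD replicate 2 and 0.0777 without Ifnar1-/- untreated replicate 1.

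The effect of adding zVAD to LPS in Ifnar1-/- cells separated the genes in another way. Rsad2 rose by 8.60 log2 (SE 0.74, adjusted p = 9.89e-07), from 6.93 and 6.73 to 15.56 and 15.31. Ifit2, not well above background with LPS, was at least 114-fold higher with LPS+zVAD (adjusted p = 2.27e-08). Ifit3 rose by 5.29 log2 (SE 0.44) and Cmpk2 by 4.31 log2 (SE 0.39). These 4 calls compare with 4.58% of all genes called higher, and the change was 8.63 and 8.57 log2 on the 2 slides for Rsad2, 6.96 and 6.80 for Ifit2, 4.57 and 4.05 for Cmpk2, and 5.93 and 4.65 for Ifit3. The genes not called higher with LPS alone were thus those that LPS+zVAD raised over LPS by a passing test, Isg20 excepted. Rsad2 is among them, although it was 0.85 and 0.90 log2 higher with LPS than untreated on the 2 slides. Both comparisons use the same LPS arrays, so a low reading there favours both results and the split is partly built in.

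For the genes that LPS alone had raised, zVAD gave other results. Mx1 went from 10.01 and 10.11 with LPS to 6.28 and 6.85 with LPS+zVAD and fell by 3.49 log2 (SE 0.92, adjusted p = 0.0234), where 3.67% of all genes were called lower. The arrays did not overlap, but the call was lost when any 1 of the 4 arrays was left out (adjusted p 0.0757 to 0.193). Mx2 read 6.93 and 7.33 with LPS and 6.99 and 7.43 with LPS+zVAD (interval of the change -0.92 to 1.08). Ifit1 was 2.64 log2 higher with zVAD (interval 0.10 to 5.19, adjusted p = 0.209), from 11.05 and 11.00 to 13.91 and 13.44. Isg20 changed by -0.29 log2 (interval -1.04 to 0.46).

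The effect of zVAD on the LPS response differed between the genotypes for 4 of 8 genes, where 2.71% of all genes were called higher. The addition of zVAD raised Rsad2 by 7.68 log2 more in Ifnar1-/- than in WT cells (SE 1.05, adjusted p = 0.000722), Ifit2 by 5.67 more, Ifit3 by 4.97 more and Cmpk2 by 2.82 more. The Ifit2 size was not measured, because neither Ifnar1-/- LPS array was well above background for it, and for Ifit3 only 1 was. In WT cells the means with LPS, before zVAD, were already 17.26 for Rsad2, 15.83 for Ifit2, 17.10 for Ifit3 and 16.35 for Cmpk2. In a fit of only the arrays of these groups 2 of the 4 calls remained, Ifit2 and Rsad2.

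Relative to untreated cells of their own genotype, the rise with LPS+zVAD did not differ between genotypes by a passing test for Ifit2 (difference 0.14 log2, interval -1.15 to 1.42) or Ifit3 (0.81, interval -0.49 to 2.10). It was larger in Ifnar1-/- cells for Ifit1 (6.14 log2 in the fit, adjusted p = 0.019) and Rsad2 (3.21, adjusted p = 0.0435), where 11.3% of all genes were called higher. The Ifit1 size is not a measured one, because its untreated Ifnar1-/- level was not well above background. It was smaller for Isg20 (-4.48), Mx2 (-3.19) and Cmpk2 (-2.30), where 4.78% were called lower. With normexp the Ifit1 difference was 2.24 (adjusted p = 0.113) and that of Rsad2 2.09 (adjusted p = 0.105). Rsad2 did not pass without any 1 of the 8 arrays (adjusted p 0.0726 to 0.113), and Ifit1 did not pass without 6 of the 8 (0.0508 to 0.0595), the exceptions being WT LPS+zVAD replicate 1 and WT untreated replicate 2. The absolute levels in Ifnar1-/- cells stayed below those of WT cells, for Rsad2 by 2.74 log2 units.

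**Figure D4:**
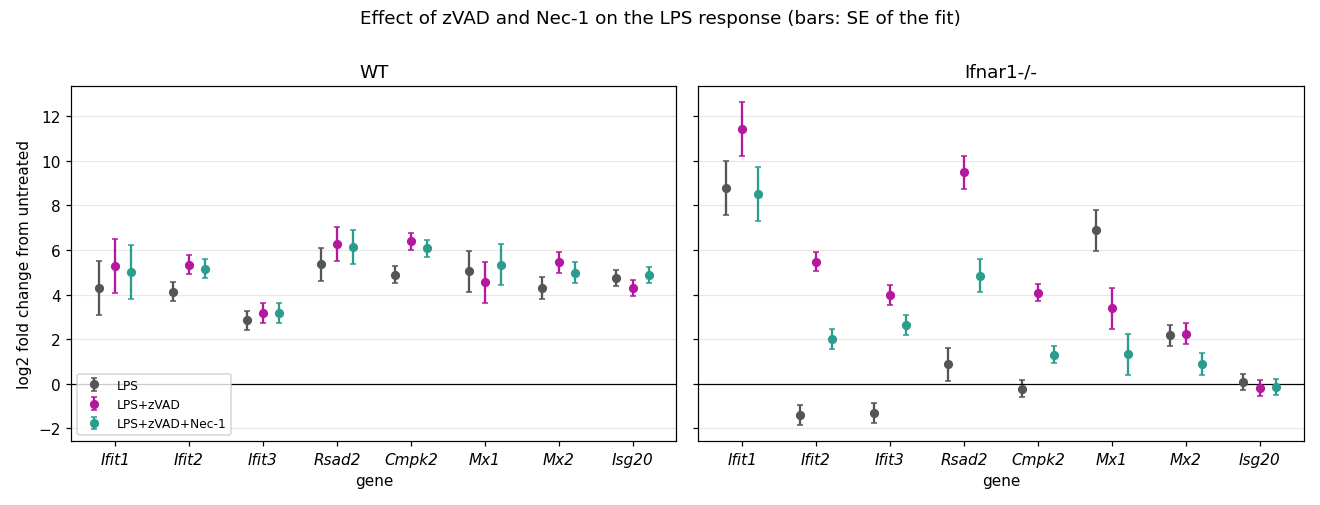
The vertical axis is the log2 fold change from untreated cells of the same genotype and the horizontal axis the 8 genes, for WT (left) and Ifnar1-/- macrophages (right); points are the fitted change with LPS (grey), LPS+zVAD (magenta) and LPS+zVAD+Nec-1 (green), and bars are the standard error of the fit. In WT cells the changes with LPS+zVAD differ from those with LPS by -0.48 (Mx1) to 1.49 (Cmpk2), and in Ifnar1-/- cells Rsad2 goes from 0.88 with LPS to 9.48 with LPS+zVAD and 4.84 with LPS+zVAD+Nec-1, while Mx1 is lower with LPS+zVAD than with LPS and, like Ifit1, is drawn from an untreated level not well above background.

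The 4 genes that zVAD had raised over LPS were lower in the group that also received Nec-1. In Ifnar1-/- cells with LPS+zVAD+Nec-1, Rsad2 read 11.50 and 10.10 and was 4.63 log2 lower than with LPS+zVAD (SE 0.74, adjusted p = 0.00044). Ifit2 read 7.49 and 8.36 and fell by 3.47 log2 (adjusted p = 4.86e-05). Cmpk2 read 8.03 and 7.66 and fell by 2.78 log2 (adjusted p = 0.00013), and Ifit3 read 8.11 and 8.64 and fell by 1.35 log2 (adjusted p = 0.0376). These calls compare with 7.65% of all genes called lower. Ifit1 read 11.96 and 9.56 and was 2.91 log2 lower without passing (adjusted p = 0.103, and 0.0305 with the slide as a block), and Mx2 read 5.89 and 5.82 (-1.36 log2, adjusted p = 0.0541, and 0.0261 with the slide as a block). The 2 arrays of this group disagreed most for Mx1, which read 6.70 on replicate 1 and was not well above background on replicate 2. Without replicate 1 the Mx1 change was -4.28 log2 and without replicate 2 it was 0.14. The first of these values rests on a single spot not well above background, so its size was not measured.

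These calls rest on the pair that stood apart, and a fit of only the 4 arrays compared called 0 genes of any kind. Against untreated Ifnar1-/- cells, 211 of all genes were called with LPS+zVAD+Nec-1, where 3975 were with LPS and 4524 with LPS+zVAD. Ifnb1 read 9.52 and 8.30 with LPS+zVAD+Nec-1, from 12.43 and 12.38 with LPS+zVAD. Whether a weaker LPS response as a whole, or a swapped sample, lies behind the falls was not tested. Without replicate 1 of the LPS+zVAD+Nec-1 pair the change was -5.34 log2 for Rsad2, -3.04 for Ifit2 and -2.97 for Cmpk2, and without replicate 2 it was -3.93, -3.91 and -2.59, and each of these passed. The Ifit3 fall had an adjusted p of 0.0698 to 0.18 without any 1 of the 4 arrays. The reduction by Nec-1 was larger in Ifnar1-/- than in WT cells for Rsad2 (by 4.50 log2, adjusted p = 0.0124), Ifit2 (3.28, adjusted p = 0.00307) and Cmpk2 (2.47, adjusted p = 0.00891), where 5.97% of all genes were called lower. Without replicate 2 of the pair that of Rsad2 was 3.8 log2 (adjusted p = 0.064). Against untreated Ifnar1-/- cells the 4 genes still called higher with LPS+zVAD+Nec-1 were Ifit1 (at least 96.3-fold), Rsad2 (4.84 log2), Ifit3 (2.63) and Ifit2 (2.01), where 0.549% of all genes were. Ifit2 lost its call without either untreated array (adjusted p 0.146 and 0.225), and Ifit3 without replicate 1 (0.0831).

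Without LPS, zVAD gave no calls among the 8 genes in Ifnar1-/- cells (0% of all genes called; 3 of the 8 and 61 of all genes at an unadjusted p under 0.05). Ifit1 read 8.21 on 1 array and was not well above background on the other, and Rsad2 read 8.86 and 5.89. The single high array was replicate 1 for Ifit1, Rsad2 and Ifit3 (7.31 and 6.31). With replicate 2 left out, 1 of the 8 genes passed. IFNβ+zVAD likewise gave 0 calls against untreated cells (0% of all genes called higher; 3 of the 8 and 585 of all genes at an unadjusted p under 0.05), with Ifit1 at 8.09 and 6.07, at least 7.48-fold higher (adjusted p = 0.421), and Rsad2 at 8.74 and 7.11. Adding Nec-1 to IFNβ+zVAD gave 1 call among the 8 genes, with 6 means higher and 2, those of Mx1 and Isg20, lower. Ifit3 rose by 1.90 log2 (adjusted p = 0.0287), from 7.35 and 6.25 to 8.50 and 8.89, where 1.05% of all genes were called higher. Rsad2, at 10.50 and 9.93, was 2.29 log2 higher (adjusted p = 0.182, and 0.0479 with the slide as a block). The Ifit3 call was lost without Ifnar1-/- IFNβ+zVAD replicate 2 (adjusted p = 0.392) and without either IFNβ+zVAD+Nec-1 array (0.136 and 0.188).

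Against untreated Ifnar1-/- cells, IFNβ+zVAD+Nec-1 gave 4 of 8 genes called higher, where 1.15% of all genes were. Ifit1 read 9.76 and 9.48, at least 43.5-fold higher (adjusted p = 0.00266), and Rsad2 rose by 4.26 log2 (adjusted p = 0.0039). Ifit3 rose by 2.95 log2 (adjusted p = 0.00178) and Ifit2, at 7.92 and 8.18, by 2.13 log2 (adjusted p = 0.0117). These are the 4 genes called with LPS+zVAD+Nec-1 too, and both comparisons use the same untreated arrays. Replicate 2 with LPS+zVAD+Nec-1 also lay closer to replicate 2 with IFNβ+zVAD+Nec-1 (r = 0.9905) than to its own replicate (0.9523). The match of the lists is therefore not one of independent groups. Ifit2 lost its call without any 1 of the 4 arrays (adjusted p 0.0768 to 0.12), Rsad2 without IFNβ+zVAD+Nec-1 replicate 1 (0.0752) or untreated replicate 2 (0.0634), and Ifit1 without IFNβ+zVAD+Nec-1 replicate 1 (0.0541).

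The changes from untreated cells with IFNβ+zVAD, and with Nec-1 added, were also compared between the genotypes. With IFNβ+zVAD the change was lower in Ifnar1-/- cells for 7 of 8 genes, where 8.39% of all genes were called lower, by 2.5 log2 (Ifit3) to 6.22 log2 (Cmpk2), and 5 passed without Ifnar1-/- IFNβ+zVAD replicate 2. The same 5 genes, Ifit2, Cmpk2, Mx1, Mx2 and Isg20, passed with LPS+zVAD+Nec-1 (7.12% of all genes) and with IFNβ+zVAD+Nec-1 (8.16%). Ifit1, Ifit3 and Rsad2 did not pass in either, and for zVAD alone the limma test of the difference gave 0 of 8 (0% of all genes; 1 of the 8 at an unadjusted p under 0.05). Adding zVAD to IFNβ in Ifnar1-/- cells gave 0 calls among the 8 (2 at an unadjusted p under 0.05), where 0.00624% of all genes were called. Mx1 was not well above background on any Ifnar1-/- array untreated, with IFNβ+zVAD or with IFNβ+zVAD+Nec-1. With LPS+zVAD+Nec-1 it was on 1 array. Mx2 was not well above background on either Ifnar1-/- IFNβ+zVAD array. The sizes of the Mx1 and Mx2 differences that rest on such groups were not measured.

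The order of the 16 groups differed between the genes. For Cmpk2, Ifit2, Ifit3, Mx1, Mx2 and Isg20 each WT group mean, untreated cells included, lay above each Ifnar1-/- group mean. For Ifit1 and Rsad2, Ifnar1-/- cells with LPS+zVAD lay above untreated WT cells and WT cells with zVAD, although for Ifit1 its arrays overlapped those of WT cells with zVAD. Rsad2 was highest in WT cells with LPS+zVAD, at 18.18 ± 0.12 (SD, n = 2 arrays), followed by LPS+zVAD+Nec-1 at 18.04 ± 0.07 and IFNβ+zVAD at 18.04 ± 0.09, and the arrays of the latter pair overlapped. Ifit1 was highest in WT cells with IFNβ+zVAD+Nec-1 (16.85 ± 0.48), and the arrays of that group overlapped those of the next in order, LPS+zVAD (16.83 ± 0.15). Mx1 was highest with IFNβ (17.29 ± 0.08), IFNβ+zVAD (17.27 ± 0.06) and IFNβ+zVAD+Nec-1 (17.27 ± 0.19), which overlapped. Mx2 was highest with IFNβ+zVAD (15.79 ± 0.15) and Isg20 with IFNβ (17.65 ± 0.18), each overlapping the next group. Among Ifnar1-/- groups LPS+zVAD was highest for Ifit1, Ifit2, Ifit3, Rsad2 and Cmpk2. For Mx2 it overlapped LPS (7.21 ± 0.32 and 7.13 ± 0.29), for Mx1 LPS was highest (10.06 ± 0.07), and for Isg20 the 8 groups ranged only from 8.91 ± 0.14 to 9.34 ± 0.13, each overlapping the next.

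Over the 8 WT groups the 28 pairs of these genes had correlations of group means from 0.966 to 0.998, with a median of 0.99. Over the 8 Ifnar1-/- groups they ranged from -0.75 (Rsad2 and Isg20) to 0.97 (Rsad2 and Cmpk2), with a median of 0.55. Rsad2, Cmpk2, Ifit2 and Ifit3 were alike there, at 0.85 to 0.97 for the 6 pairs among them, and Mx1 and Mx2 had 0.84. These are descriptions over group means that share slides, the Mx1 means lie below background on both arrays in 4 of the 8 Ifnar1-/- groups, and the Isg20 values rest on a range of under 0.5 log2.

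The genes of the pathway around the 8 were read from lists chosen with earlier results of these data known. Of 3 measured IFIT relatives, I830012O16Rik (Ifit3b) was not well above background in untreated and LPS-treated Ifnar1-/- cells and read 7.41 and 7.26 with LPS+zVAD, at least 7.15-fold higher than with LPS (adjusted p = 0.000207). A second probe of this gene was not well above background in either group. Gm14446 was not well above background on any Ifnar1-/- array, and 2010002M12Rik did not pass for LPS in Ifnar1-/- cells (-0.67 log2). Ifnb1 itself, the interferon ligand, was not well above background in untreated Ifnar1-/- cells and read 11.50 and 11.65 with LPS, at least 169-fold higher (adjusted p = 2.91e-05), and 12.43 and 12.38 with LPS+zVAD. Its 0.83 log2 difference between LPS+zVAD and LPS did not pass (adjusted p = 0.749), although the arrays of these groups did not overlap. The Ifnb1 SD, part of the shared spread, was 3.04 in Ifnar1-/- cells with zVAD. With Nec-1 it read 9.52 and 8.30 after LPS+zVAD, and 8.35 and 8.12 after IFNβ+zVAD. How Ifnb1 relates to the changes of the 8 genes was not tested. Of 9 measured interferon ligand genes, 2 were called higher with LPS in Ifnar1-/- cells (10.9% of all genes), Ifnb1 and Ifna1 (1.01 log2).

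The 4 receptor and kinase genes gave 0 calls with LPS in Ifnar1-/- cells, where 10.9% of all genes were called higher and 13.9% lower, and the 3 feedback inhibitors Socs1 (6.51 log2), Socs3 (8.82) and Usp18 (1.1) were each called higher. Of 29 other antiviral interferon-stimulated genes, 26 were higher with LPS and 27 with IFNβ in WT cells, where 16.3% and 13.7% of all genes were. In Ifnar1-/- cells 15 were higher and 1 lower with LPS (10.9% and 13.9% of all genes), and 0 were called with IFNβ (0% of all genes). Those higher with LPS in Ifnar1-/- cells included Oasl1 (at least 238-fold), an oligoadenylate synthetase-like gene, Rtp4 (7.64 log2), the ubiquitin-like modifier gene Isg15 (6.86) and the GTPase gene Gbp2 (6.38), while the sensor gene Ddx58 was at 0.34 and did not pass. The median change of this list with LPS in Ifnar1-/- cells was 1.20 log2 (1.25 with genes not well above background at their bound) against 0.48 for the 8 effectors and -0.06 for all genes. Adding zVAD to LPS there gave 0 higher and 3 lower (Ddx58, Trim30a and Xaf1) of the 29, against 4 higher and 1 lower of the 8 effectors. Of all genes, 4.58% were called higher and 3.67% lower in that comparison. Of 15 TNF and NF-κB targets, 15 were higher with LPS in Ifnar1-/- cells (10.9% of all genes) and 0 passed when zVAD was added. When Nec-1 was added to LPS+zVAD, 12 fell, where 7.65% of all genes were called lower. The Nec-1 comparison rests on the pair that stood apart, and a fit of only the arrays compared called 0 genes.

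Genes outside the 8 were ranked by Pearson correlation over the 16 group means. Those with profiles most like the mean of the 8 were Rnf213 (r = 0.989), Irgm1 (0.987), I830012O16Rik (0.987), Helz2 (0.985) and Nlrc5 (0.985). Those most like each gene differed. Oasl1 (0.996) and Cxcl10 (0.99) were closest to Ifit1, Rnf213 (0.991) to Ifit2, and I830012O16Rik (0.994) to Ifit3. Rnf213 (0.995) and Irgm1 (0.994) were closest to Cmpk2, Trex1 (0.997) and Zbp1 (0.995) to Mx1, Helz2 (0.997) to Mx2, and BC094916 (0.999) and Phf11a (0.997) to Isg20. The closest gene to Rsad2 outside the 8 was Ythdc1, at 0.974, the lowest of these best matches. Within the 8, Ifit2 correlated with Rsad2 at 0.974 and with Cmpk2 at 0.993.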

How the data were processed

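RNA from 32 BMDM samples was hybridized, 1 sample per array, to Agilent mouse 8x60K arrays with a single dye. The deposited scanner files hold intensity values from Feature Extraction 11.5.1.1, which subtracted the local background, corrected trends within an array and replaced very dim spots by a surrogate. The authors also deposited a table of log2 values, quantile-normalized between arrays, which was used as an alternative. The submitters' processing notes name limma, with no version. Precision is limited by how many arrays there are.

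Here the deposited intensity was taken to log2, outlier spots, between 130 and 499 on an array, were dropped, spots of a probe were averaged, and arrays were quantile-normalized. Of 33140 probes with a gene symbol, 21465 were well above background on at least 50% of arrays, and the brightest probe stood for each of 16037 genes. limma 3.58.1 in R 4.3.3 fitted the 16 group means to all arrays (16 residual degrees of freedom), with Benjamini-Hochberg adjustment over all genes and a threshold of 0.05. The spread of a gene is shared over all 16 groups, so uneven readings in dim Ifnar1-/- groups widen its intervals in other groups too. The script was tested on simulated data. A group with 0 of 2 arrays well above background gives a bound: the other group's mean against, per array, the higher of the lowest signal well above background and the probe's own.

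Same-numbered arrays of a genotype share a slide. Their deviations from the group means correlated at 0.319 to 0.67 in WT and 0.17 to 0.574 in Ifnar1-/- cells, over 0.1 in 28 of 28 pairs of groups each, so the slide was used as a block in an alternative. Other alternatives were a common 75th percentile, normexp (offset 50), no filter on dim probes, the mean of a gene's probes, trended robust eBayes, the arrays of the groups compared alone, dropping the Ifnar1-/- LPS+zVAD+Nec-1 pair, and leaving out each array. The dimmer probe of Cmpk2 and Isg20 was added after seeing the data. The 8 genes and the lists were chosen with earlier results of these data known. The text names the 8 genes, genes of those lists, Ifnar1, and by rule the 5 other genes most correlated with the mean of the 8 and up to 3 per gene. Promoter sequences are from RefSeq.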

Additional observations from a re-analysis of the deposited data

Results flagged for a closer look

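Several effects differed between the genotypes by a test of the difference itself. Of the 8 genes, the change from untreated cells was lower in Ifnar1-/- cells for 5 with LPS (3.6% of all genes called lower), 7 with IFNβ (8.54%) and 7 with IFNβ+zVAD (8.39%). It was also lower for 5 with LPS+zVAD+Nec-1 (7.12%) and 5 with IFNβ+zVAD+Nec-1 (8.16%). With LPS+zVAD it differed for 5, being higher for 2 (11.3%) and lower for 3 (4.78%). The effect of adding zVAD to LPS was higher in Ifnar1-/- cells for 4 genes (2.71%). That of adding Nec-1 to LPS+zVAD was lower for 3 (5.97%). The single-gene differences with LPS, as the change in Ifnar1-/- minus the change in WT cells, were -5.54 log2 for Ifit2, -5.12 for Cmpk2, -4.65 for Isg20, -4.47 for Rsad2 and -4.16 for Ifit3. For the addition of zVAD to LPS they were 7.68 log2 for Rsad2, 5.67 for Ifit2, 4.97 for Ifit3 and 2.82 for Cmpk2. In both comparisons the Ifit2 sizes, and in part those of Ifit3, rest on Ifnar1-/- LPS readings not well above background.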

How the results depend on the processing

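With 2 arrays a group and many Ifnar1-/- levels near background, the falls of Ifit2 and Ifit3 with LPS and single calls in small comparisons are the least firm. Of 1457 recomputed single-gene values, 1342 kept direction and side of the threshold, 92 lost the threshold, 13 gained it and 10 turned sign. The block by slide, as the replicate pairing, gained 9 calls, lost 0, and changed no other call: it gave 4 genes (2 without it) for LPS against IFNβ in WT cells and 2 (1 without it) for Nec-1 added to IFNβ+zVAD in Ifnar1-/- cells. For LPS in Ifnar1-/- cells the count was 5, against 3 with the authors' values and 3 with normexp, and for LPS against IFNβ there it was 5, against 3 with normexp. With only the arrays compared, the count was 0 in place of 4 for LPS+zVAD+Nec-1 against untreated and for Nec-1 added to LPS+zVAD in Ifnar1-/- cells, 0 in place of 1 for Nec-1 added to IFNβ+zVAD there, and 0 in place of 2 for LPS against IFNβ and for zVAD added to LPS in WT cells. It was then 3 in place of 8 between genotypes with zVAD, 0 in place of 3 for the difference between genotypes in the Nec-1 effect and 2 in place of 4 in the zVAD effect. Without the filter, zVAD added to LPS in WT cells gave 1. Leaving out 1 array at a time, the count in Ifnar1-/- cells was 3 to 4 for LPS, 3 to 5 for LPS against IFNβ, 2 to 6 for LPS+zVAD+Nec-1, 1 to 3 for IFNβ+zVAD+Nec-1, 0 to 1 for Nec-1 added to IFNβ+zVAD and 0 to 1 for zVAD. In WT cells it was 0 to 2 for LPS against IFNβ, for zVAD added to LPS and for zVAD, and the LPS+zVAD difference between genotypes gave 3 to 4. The signs that turned belong to values that never passed. They are Isg20 with LPS in Ifnar1-/- cells (-0.11 to 0.30 with 1 array left out), Mx1 in the LPS difference between genotypes (-1.05 with normexp), Isg20 in the zVAD effect between genotypes (-0.28 with a common 75th percentile, -0.13 with the dimmer probe, and -0.15 to 0.49 with 1 array left out), and Mx2 for zVAD added to LPS in Ifnar1-/- cells (-0.0032 with the authors' values, -0.037 with normexp, and -0.14 to 0.30 with 1 array left out). The 75th percentile moved the median of all genes by up to 0.294 log2, and the share of calls that were higher from 39.6% to 50.2% for LPS in WT cells. The cause of these changes was not tested beyond the fewer arrays in the smaller fits.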
